A study of Mus musculus with 4 samples.

Results

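The genes described here encode the proteins of the mitochondrial ribosome. They were taken as every gene whose symbol on the array begins with Mrpl or Mrps followed by a number, which gave 78 of the 19321 genes with a symbol, or 81 of the 20690 probes with a symbol. By symbol, 49 belong to the large subunit and 29 to the small subunit. The symbols differ from the structure of the mammalian ribosome in 3 cases. Mrps18a and Mrps30 sit in the large subunit in spite of their names, and Mrps36 is now known as a subunit of the 2-oxoglutarate dehydrogenase complex of the citric acid cycle. All 78 genes had a probe above background on at least 2 of 4 arrays and entered the fit, so no member was lost to the filter.

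Total RNA of ventricular muscle from male mice of the strain 129SV was measured on 1-colour oligonucleotide arrays, in 2 wild-type samples and 2 samples homozygous for a deletion of Trpc6. Trpc6 encodes a calcium-permeable cation channel that opens downstream of receptors. The design sets the transcript levels of ventricles with the channel against those without it. The age of the mice and the way the deletion was made are not given in the sources used here, and the labels do not say whether the samples of a group came from separate animals, so that the p-values rest on a spread that may be technical.

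Mitochondrial ribosomes translate the few messenger RNAs that mitochondrial DNA encodes, all of them for membrane subunits of the respiratory chain and ATP synthase. Their RNA is transcribed in the organelle, whereas all their proteins are encoded in the nucleus, made in the cytosol and imported. About the rest of the machinery, dedicated initiation and elongation factors, aminoacyl-tRNA synthetases and assembly factors serve only this ribosome. The heart muscle cell is packed with mitochondria and depends on their ATP, which is why this translation system matters in the ventricle.

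The RNA carried ventricular transcripts, and the labels cannot be checked by way of Trpc6. All 8 ventricular markers, among them Myl2 and Tnni3, were above background, and the log2 of their summed intensity was 17.66 to 17.69 in wild type and 17.70 to 17.72 in the knockout. Of the atrial markers, Sln had no probe under its symbol, and Myl7 and Myl4 had mean log2 values of 6.10 and 6.68, near background. Their summed log2 intensity was 7.21 and 7.94 in wild type, against 7.34 and 7.24 in the knockout, so that the second wild-type array stood apart, and both were lower in the knockout. The sum of 6 fibroblast genes was 12.18 and 12.04 in wild type, against 11.96 and 11.78 in the knockout, with 3 genes higher and 3 lower, and 4 of 5 endothelial genes were lower. The Trpc6 probe read 80.5 and 89.2 units in wild type, against 84.1 and 82.6 units in the knockout. This was below the background threshold on every array, 80.8 and 91.5 units in wild type and 85.5 and 83.3 units in the knockout. The summed log2 intensity of 4 red cell genes was 9.59 and 10.86 in wild type, against 11.16 on both knockout arrays. All 4 were higher in the knockout, and the part that blood or other cells in the tissue play in the values below was not tested. In whole tissue, fewer cells of a type and less RNA per cell cannot be told apart.

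The members were measured well above background in most cases. The median member read 448 and 483 units in the wild-type samples and, in the knockout samples, 473 and 452 units, with blank spot medians of 78.4 to 87.5 units. The probe farthest above background was that of Mrpl42, a protein found only in mitochondrial ribosomes, at 6247 and 6028 units in wild type, against 6439 and 6166 units in the knockout. Also far above background were Mrpl30, the homologue of a bacterial large subunit protein, and in the small subunit set Mrps36 and Mrps21. At the other end, Mrpl41 read 81.5 and 90.9 units in wild type, against 84.9 and 85.8 units in the knockout and was above background on 1 of 2 arrays in each group. The other 77 members were above background on all 4 arrays. The 8 members with a mean log2 value under 6.5, among them Mrpl15, Mrpl24, Mrpl33 and Mrps14, lie so close to background that the offset added before taking logs compresses their differences.

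What the members share beyond their names was looked for in their promoters, read as the 300 bases from 250 before to 50 after the annotated start in RefSeq's table for GRCm38.p6, where 69 of 78 members had an entry. Without one were Mrpl15, Mrpl13, Mrps34, Mrpl38, Mrps35, Mrpl4, Mrps28, Mrpl54 and Mrpl19. Short letter strings known from nuclear genes of mitochondria were searched on both strands. CCGGAAG, the core that ETS factors such as GABPA bind, was in 24 member promoters, 34.8%, against 14.4% of the 12504 promoters of genes tested and 9.14% of all 27025 promoters. The palindrome of the nuclear respiratory factor NRF1, seen in capitals in Mrpl12 and Mrpl39 below, was in 13, 18.8%, against 8.39% and 4.82%. AAGATGGC, bound by YY1, was in 12, 17.4%, against 3.89% and 2.87%. CACGTG, the E-box of MYC, was in 5, 7.25%, against 9.36% and 7.24%. The first 3 strings thus had higher shares among members than among the genes tested, and the E-box did not. No test was made of these shares, and a match of letters is not evidence of binding.

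Between the subunits the shares leaned different ways. The NRF1 string was in 10 of 43 large subunit promoters and 3 of 26 small subunit promoters, 23.3% and 11.5%. The ETS core was in 14 and 10, 32.6% and 38.5%, and the YY1 string in 6 and 6, 14.0% and 23.1%. At least 1 string was in 43 of the 69 promoters, 62.3%, against 30.2% of the genes tested, and 26 members had none. The median GC content of the member promoters, 58.3%, was close to the 59.0% of the genes tested.

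The following stretches, which end at or before the annotated start, show how the strings lie in these promoters. They are printed 5′ to 3′ on the strand of the gene, with the string in capitals. Mrpl20 and Mrps18a are shown because they are described below. The others are examples of members whose string lies upstream of the start, outside any other annotated gene. Mrpl34 is a further such member and is not shown.
Mrpl20: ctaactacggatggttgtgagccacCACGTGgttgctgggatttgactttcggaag
Mrps18a: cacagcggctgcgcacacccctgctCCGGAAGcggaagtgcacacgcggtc
Mrpl3: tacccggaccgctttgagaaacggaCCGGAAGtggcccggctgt
Mrps22: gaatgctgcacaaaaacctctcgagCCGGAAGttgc
Mrpl52: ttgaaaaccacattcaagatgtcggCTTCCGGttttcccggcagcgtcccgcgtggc
Mrpl12: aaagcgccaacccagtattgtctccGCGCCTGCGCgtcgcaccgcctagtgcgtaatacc
Mrpl39: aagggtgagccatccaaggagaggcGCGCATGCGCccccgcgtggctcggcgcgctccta

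In GRCm38.p6 these lie at chr4:155802820-155802875 for Mrpl20, chr17:46110953-46111003 for Mrps18a, chr9:105053224-105053267 for Mrpl3 and chr14:54426837-54426893 for Mrpl52, all on the plus strand. That of Mrpl12 lies at chr11:120484531-120484590, also on the plus strand. Those of Mrps22, chr9:98601680-98601715, and Mrpl39, chr16:84735335-84735394, are on the minus strand. The ETS core begins 11 bases before the start in Mrps22, 19 in Mrpl3, 26 in Mrps18a and 47 in Mrpl52, where it reads on the opposite strand. In Mrpl12 and Mrpl39 the NRF1 string begins 81 and 125 bases before the start, and in Mrpl20 the E-box begins 33 bases before it. The NRF1 string of Mrpl12 reads on the opposite strand.

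**Figure D1:**
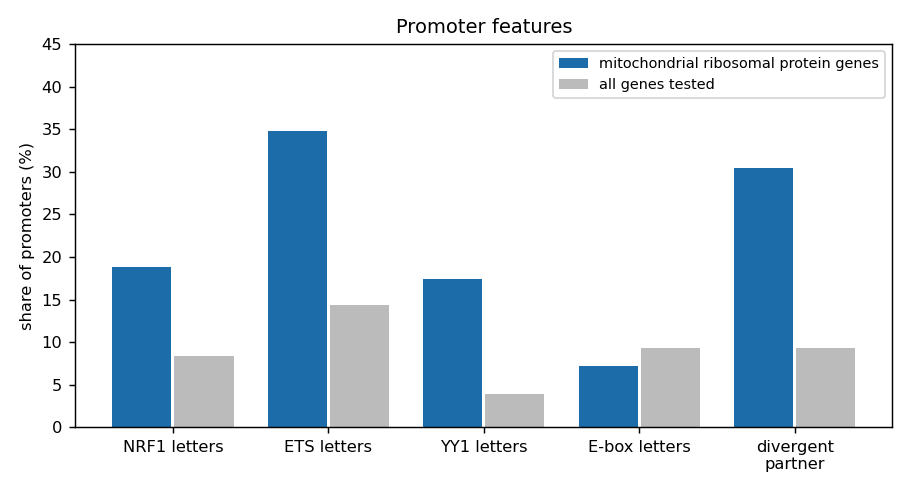
Share of promoters, in percent, that hold each letter string, and share with a divergent protein-coding partner, for the mitochondrial ribosomal protein genes with an entry (blue) and all genes tested (grey). Shares are higher among members for the ETS, NRF1 and YY1 strings (34.8%, 18.8% and 17.4%) and for divergent partners (30.4%), and lower for the E-box (7.25%).

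A second shared feature was the arrangement of the genes. A protein-coding gene that starts within 500 bases on the opposite strand, a divergent partner, was found for 21 of 69 members, 30.4%, against 9.31% of the 12140 protein-coding genes tested. It was found for 15 of 43 large subunit and 6 of 26 small subunit genes. Several partners also serve mitochondria. Mrps12 starts 147 bases from Sars2, the mitochondrial seryl-tRNA synthetase, Mrpl43 starts 116 bases from Twnk, the helicase of mitochondrial DNA, and Mrpl47 starts 308 bases from Ndufb5, a subunit of respiratory complex I. Mrpl46, a protein of the central protuberance, and Mrps11, a protein of the small subunit platform, start 42 bases apart and are both members.

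The genes of a pair differed between the genotypes in the same direction in some pairs and in opposite directions in others. Of the 20 distinct pairs, 18 had both genes measured, and 10 of the 18 had the same sign in both. In the pair of members, Mrpl46 had a log2 fold change of -0.15 ± 0.10 (standard error) and Mrps11 one of 0.11 ± 0.05. Mrpl43 was at -0.21 ± 0.10 and Twnk at 0.22 ± 0.07. Mrpl50 was at -0.09 ± 0.06 and its partner Zfp189, a zinc finger gene, at 0.14 ± 0.04, whereas Mrpl32 at 0.02 ± 0.08 and its partner Psma2, a proteasome subunit, at 0.16 ± 0.05 had the same sign. Fold changes here and below are differences of mean normalized log2 intensity, knockout minus wild type, with 2 arrays in each group.

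Between knockout and wild-type ventricle the mitochondrial ribosomal protein genes differed little, and no gene passed the test. Of the 78 genes, 44 were higher and 34 lower in the knockout, with a median log2 fold change of 0.035, or 2.42%, against 0.0017 over all 15955 genes tested. This gap narrowed with other scalings of the arrays, to a member median of 0.011 against 0.0056 over all genes with a common median, and to 0.044 against 0.039 with a common 75th percentile. Among the 2296 brighter genes described below, the median was 0.011 and 52.9% were higher, against 56.4% of the members. The members' values ran from -0.31 for Mrpl20 to 0.32 for Mrps33. After Benjamini-Hochberg adjustment over all genes, limma called 0 members and 0 genes in all, 0.00%, and the lowest adjusted p of a member was 0.727. At an unadjusted limma p under 0.05 there were 6 members, 7.69%, against 6.74% of all genes tested. The 4 higher in the knockout were Mrpl17, Mrpl48, Mrpl35 and Mrpl23, against a background of 3.67% in that direction, and the 2 lower were Mrpl20 and Mrpl10, against 3.08%.

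The values of the 2 knockout arrays lay wholly above or below those of the wild-type arrays in 33 members, 42.3%, 21 of them higher and 12 lower. Over all genes tested this share was 36.8%, with 19.4% higher and 17.4% lower. Both shares were higher among bright probes. Among the 2296 genes with a mean log2 value of at least 8.06, the lower quartile of the members, groups did not overlap in 40.3% and an unadjusted p under 0.05 was reached by 17.5%. The members' 42.3% lies close to the first of these and their 7.69% below the second. That limit was chosen after the values were seen, and neither difference was tested.

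**Figure D2:**
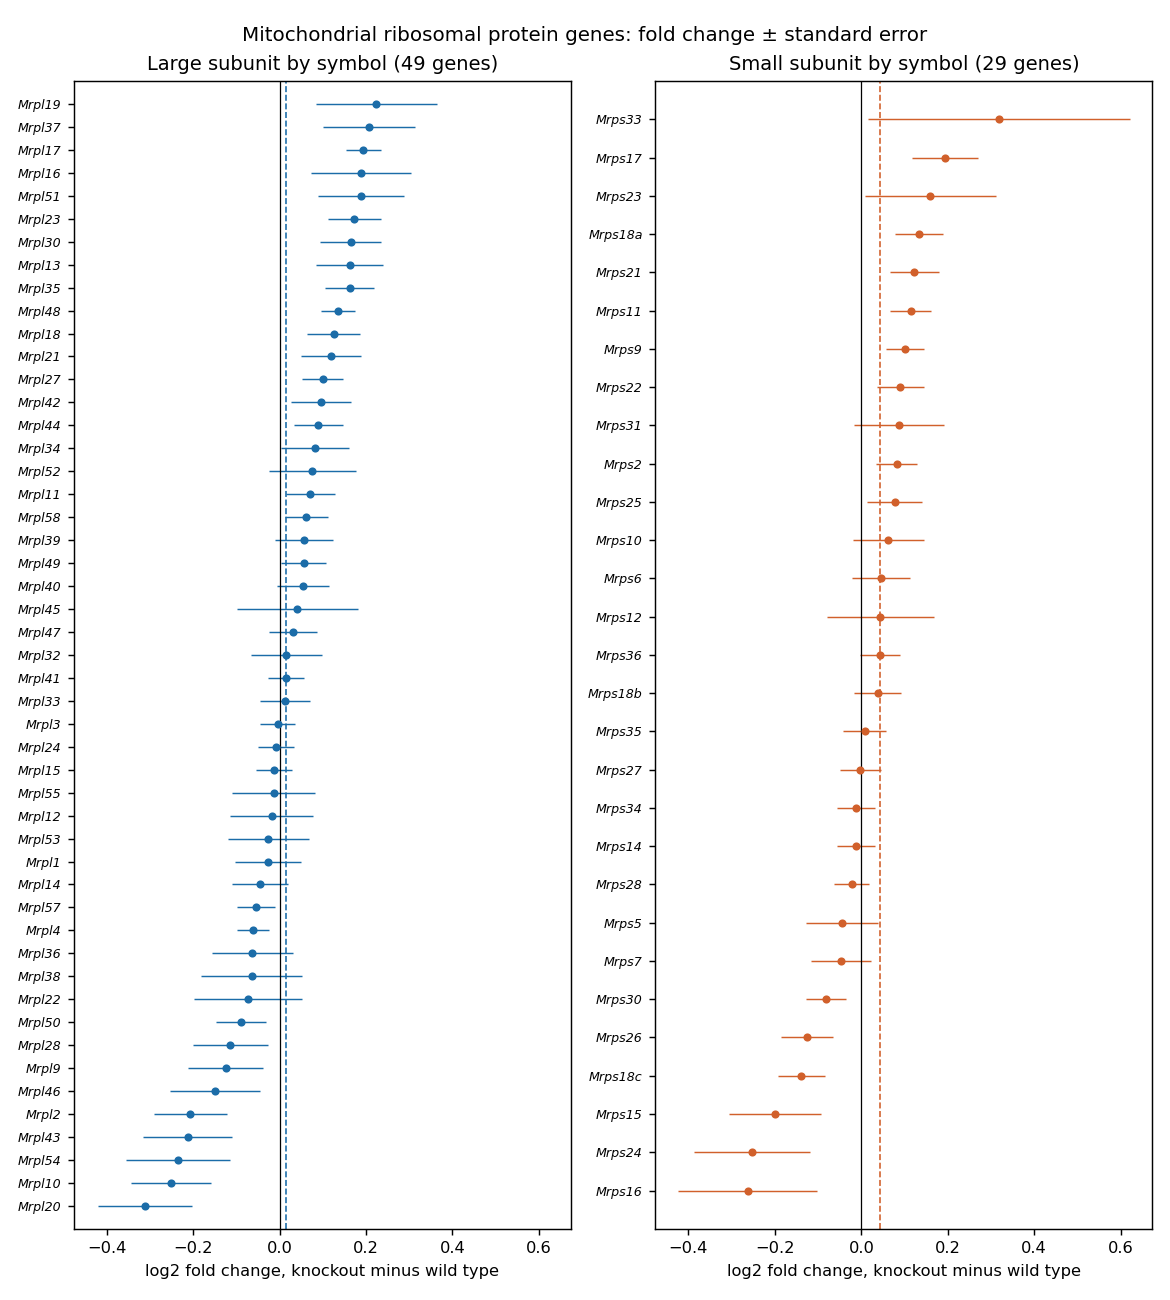
Log2 fold change, knockout minus wild type, of each of the 49 large subunit genes (left) and 29 small subunit genes (right), sorted by value; points are the estimates, bars the limma standard errors and dashed lines the medians, 0.015 and 0.042. Values range from -0.31 (Mrpl20) to 0.32 (Mrps33) and most bars reach or approach 0.

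The intervals of single genes hold only for the processing used here. With local background subtracted, the log2 fold change of Mrps36 was 1.64, outside its interval of -0.08 to 0.17. The 95% interval of the fold change lay within 2-fold in either direction for 77 of 78 members, within 1.5-fold for 73 and within 1.2-fold for 35. The exception at 2-fold was Mrps33, from -0.49 to 1.13 on the log2 scale. The spread within a group was as large as most differences between groups. The median difference between arrays of a group was 0.12 in wild type and 0.078 in the knockout, and the fold change exceeded both of the gene's own within-group differences in 17 of 78 members, 21.8%, against 23.9% of all genes. For dim members the offset narrows these intervals along with the fold changes.

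The fold changes of large and small subunit genes covered much the same range. In the large subunit 27 of 49 genes were higher and 22 lower, with a median log2 fold change of 0.015. In the small subunit 17 of 29 were higher and 12 lower, with a median of 0.042, so that the large subunit median was lower by 0.027. With arrays scaled to a common median or to a common 75th percentile instead of quantile normalized, the difference turned to 0.0089 in favour of the large subunit. Groups did not overlap in 21 large subunit genes, 42.9%, and in 12 small subunit genes, 41.4%. Such genes made up 36.8% of all genes tested and 40.3% of the 2296 brighter genes. All 6 members at an unadjusted p under 0.05 were large subunit genes, 12.2% of that subunit, against 0 of 29 in the small subunit. That p was reached by 6.74% of all genes tested and by 17.5% of the 2296 brighter genes. Whether the subunits differ in this share was not tested. Sorted by structure instead of by symbol, the large subunit had 28 of 51 genes higher with a median of 0.015, and the small subunit 15 of 26 with a median of 0.041.

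Proteins with a bacterial homologue and proteins that only mitochondrial ribosomes have were also set side by side. In the large subunit 15 of 30 genes with a bacterial homologue were higher, with a median of 0.0039, and 12 of 19 genes found in mitochondria only, with a median of 0.054. In the small subunit these were 10 of 18, with a median of 0.041, and 6 of 10, with a median of 0.042.

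Within the large subunit, Mrpl10 had the lowest fold change among the proteins of the stalk and its base, which recruit translation factors. Its probe, M300000194, had normalized log2 values of 8.47 and 8.67 in wild type, against 8.40 and 8.24 in the knockout, so that both knockout values lay below both wild-type values. The log2 fold change was -0.25 ± 0.09, with an unadjusted limma p of 0.0462 and an adjusted p of 0.734. Of the 5 stalk genes, Mrpl10, Mrpl12, Mrpl53 and Mrpl54 were lower and Mrpl11 higher, at 0.07 ± 0.06, with a median of -0.026. Mrpl54 was at -0.23 ± 0.12, and Mrpl12, which also binds the mitochondrial RNA polymerase, at -0.02 ± 0.10. These structural groups were drawn up after the values were seen and are given as an order for the description only.

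Mrpl20, whose bacterial homologue binds ribosomal RNA early in assembly of the large subunit, was the member with the lowest fold change. Its probe, M300006462, read 9.76 and 10.01 in wild type, against 9.66 and 9.49 in the knockout on the log2 scale, without overlap. The mean was 9.89 ± 0.18 (SD, n = 2) in wild type and 9.57 ± 0.12 in the knockout. The fold change of -0.31 ± 0.11, a level lower by 19.4%, had an unadjusted limma p of 0.0401 and an adjusted p of 0.727. The second wild-type array held the highest value of this gene and also of Mrpl10. Mrpl20 carries an E-box in the stretch shown above. Members with and without each promoter string had medians of 0.069 and 0.032 for the ETS core, 0.041 and 0.043 for the NRF1 string and 0.050 and 0.041 for the YY1 string. For the E-box they were -0.14 and 0.045, but only 5 members have it, and Mrpl20 and Mrps18c, described here for their low values, are among them.

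The genes of the exit tunnel rim, where the nascent chain leaves the ribosome toward the inner membrane, included a pair with higher values in the knockout. Mrpl17, probe M200014064, had log2 values of 8.21 and 8.15 in wild type, against 8.38 and 8.37 in the knockout. Its fold change of 0.19 ± 0.04 had the lowest unadjusted p of any member, 0.00676, and an adjusted limma p of 0.727. Mrpl23, probe M300014875, had 9.61 and 9.75 in wild type, against 9.83 and 9.88 in the knockout, a fold change of 0.17 ± 0.06 with an unadjusted limma p of 0.0427. In both genes the 2 knockout values lay close together and above the wild-type values. Of the 8 genes of this group 6 were higher, with a median of 0.049. Mrpl45, which anchors the ribosome to the membrane, was at 0.04 ± 0.14 and Mrpl22 was the lowest at -0.07 ± 0.12.

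In the central protuberance, which in mammals holds a transfer RNA in place of the bacterial ribosomal RNA, Mrpl48 stood at the upper end. Its probe read 9.38 and 9.41 in wild type, against 9.54 and 9.52 in the knockout, without overlap, a fold change of 0.14 ± 0.04 with an unadjusted limma p of 0.0215. The annotation assigns this probe to a non-coding RNA record, and whether it reads the protein-coding transcript was not tested. A second probe of Mrpl48, with 85.0 to 94.6 units near background, had a fold change of -0.0015 ± 0.04 and bears little on it. Of the 7 genes of this region 4 were higher, with a median of 0.054. Mrpl46 was the lowest at -0.15 ± 0.10 and Mrpl18, the homologue of the protein that binds bacterial 5S RNA, was at 0.13 ± 0.06.

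Around the peptidyl transferase centre, where peptide bonds form, values lay on both sides of 0. Mrpl16 was at 0.19 ± 0.12 and Mrpl27 at 0.10 ± 0.05, Mrpl2 was at -0.21 ± 0.08 and Mrpl4 at -0.06 ± 0.04, and Mrpl3 at -0.0048 ± 0.04. In 3 of these 5 genes the groups did not overlap, which was so in 36.8% of all genes tested. The median was -0.0048.

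Of the remaining large subunit genes named by the rule, Mrpl35 was dim. It had log2 values of 6.39 and 6.27 in wild type, against 6.51 and 6.47 in the knockout, from spot intensities of 110 and 114 units against 118 and 116 units. The fold change was 0.16 ± 0.06, with an unadjusted limma p of 0.0398. Mrpl30 had 11.49 and 11.44 in wild type, against 11.71 and 11.54 in the knockout, a fold change of 0.16 ± 0.07 with a limma p of 0.0728. Mrpl42, the member farthest above background, had 12.66 and 12.48 in wild type, against 12.67 and 12.66 in the knockout. Its fold change of 0.10 ± 0.07 had a limma p of 0.234, and the second wild-type array was the odd value among the 4. Mrpl37, another protein without a bacterial homologue, was at 0.21 ± 0.11, and Mrpl19 at 0.22 ± 0.14.

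**Figure D3:**
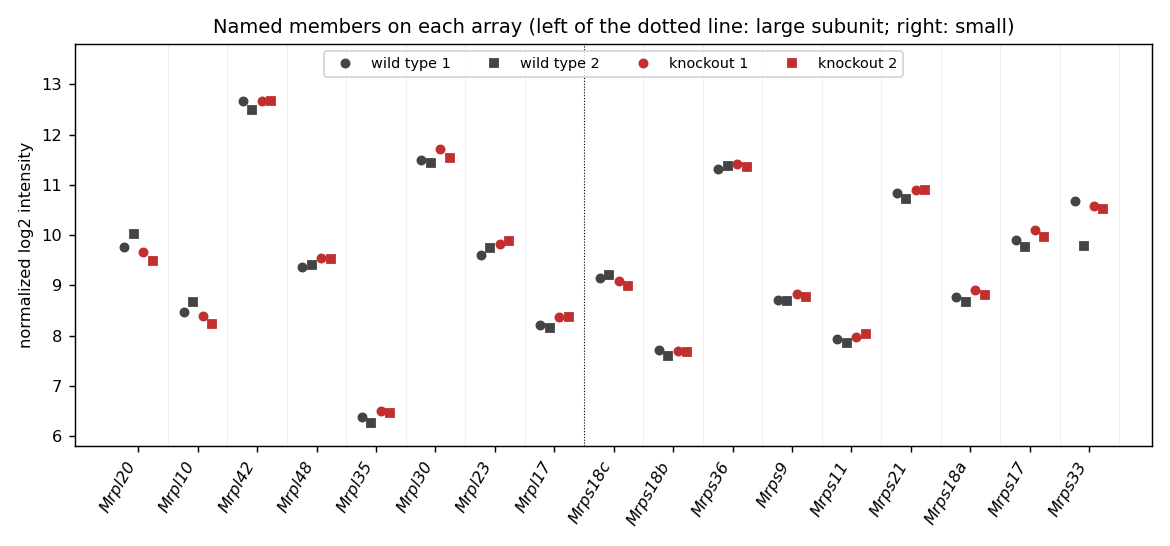
Normalized log2 intensity of the named members on each array, with large subunit genes left of the dotted line and small subunit genes right of it, sorted by fold change within each; black marks wild type, red the knockout, circles sample 1 and squares sample 2. Mrpl20, Mrpl10 and Mrps18c have both red points below both black points, and in Mrps33 the second wild-type array, at 9.79, stands apart from values of 10.52 to 10.69.

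In the small subunit no gene reached an unadjusted limma p under 0.05, and the lowest, 0.0557, belonged to Mrps18c. The Mrps18 family has 3 members in mammals, of which each ribosome carries Mrps18a in the large subunit and Mrps18b and Mrps18c at separate sites of the small one. Mrps18c had log2 values of 9.14 and 9.20 in wild type, against 9.08 and 8.98 in the knockout, a fold change of -0.14 ± 0.05. Mrps18a had 8.76 and 8.68 in wild type, against 8.90 and 8.81 in the knockout, a fold change of 0.13 ± 0.06 with a limma p of 0.0657. Mrps18b had 7.71 and 7.60 in wild type, against 7.70 and 7.68 in the knockout, with overlap, at 0.04 ± 0.05. The 3 paralogues thus had values on both sides of 0, each with a single probe.

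At the decoding centre and platform, where codon and anticodon meet, 5 of the 6 genes listed were higher, with a median of 0.045. The list was drawn up after the values were seen and leaves out Mrps18c, described above at -0.14. Mrps11 had log2 values of 7.93 and 7.85 in wild type, against 7.98 and 8.03 in the knockout, a fold change of 0.11 ± 0.05 with a limma p of 0.0677. Mrps12, whose bacterial homologue is known for streptomycin resistance mutations, was at 0.04 ± 0.12, and Mrps15 was the lowest of the group at -0.20 ± 0.11. Mrps21 had 2 probes above background that disagreed. The brighter one, used here, had 10.84 and 10.71 in wild type, against 10.90 on both knockout arrays, a fold change of 0.12 ± 0.06. The other read 9.51 and 9.80 in wild type, against 9.50 and 9.29 in the knockout, a difference of -0.26 ± 0.13, so no direction is given for this gene, which the count above takes by its brighter probe.

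In the head of the small subunit, Mrps9 had log2 values of 8.72 and 8.68 in wild type, against 8.83 and 8.77 in the knockout, a fold change of 0.10 ± 0.04 with a limma p of 0.0730. Mrps10, Mrps14 and Mrps7 were at 0.06 ± 0.08, -0.01 ± 0.04 and -0.05 ± 0.07. Mrps17, a homologue of a bacterial protein that binds ribosomal RNA in the body, had 9.91 and 9.76 in wild type, against 10.10 and 9.96 in the knockout. Its fold change of 0.19 ± 0.08 had a limma p of 0.0572, and the groups did not overlap. Mrps36 had 11.31 and 11.38 in wild type, against 11.41 and 11.36 in the knockout, with overlap, at 0.04 ± 0.05.

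Mrps33 had the highest fold change of all members and the widest spread. Its log2 values were 10.69 and 9.79 in wild type, against 10.59 and 10.52 in the knockout, so that the first wild-type array was the highest of all 4. The fold change of 0.32 ± 0.30 had a limma p of 0.347, and without the second wild-type array it was -0.14. Mrps16 showed the reverse, with an array difference of 0.06 in wild type and 0.46 in the knockout and a fold change of -0.26 ± 0.16. Mrps24 had a difference of 0.38 between the knockout arrays, and Mrps23 and Mrpl19 differences of 0.43 and 0.40 between the wild-type arrays.

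Which array carried the highest or lowest value was not even among the members. The first knockout array was the highest of the 4 in 33 of 78 members, 42.3%, against 20.9% of all genes tested and 22.4% of the 2296 brighter genes. It was the lowest in 7 members, 8.97%, and in 0 of the 29 small subunit genes. The second wild-type array was the lowest in 33 members, 42.3%, against 32.3% of all genes and 35.9% of the 2296 brighter genes. Measured against the gene's own mean over the 4 arrays, the median member was at 0.0063 and -0.025 in the wild-type samples and, in the knockout samples, at 0.049 and -0.012. By this measure the first knockout array lay above both wild-type arrays and the second lay between them. The median member was lower by 0.052 on the second knockout array than on the first, a step larger than the median difference of 0.035 between the groups.

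**Figure D4:**
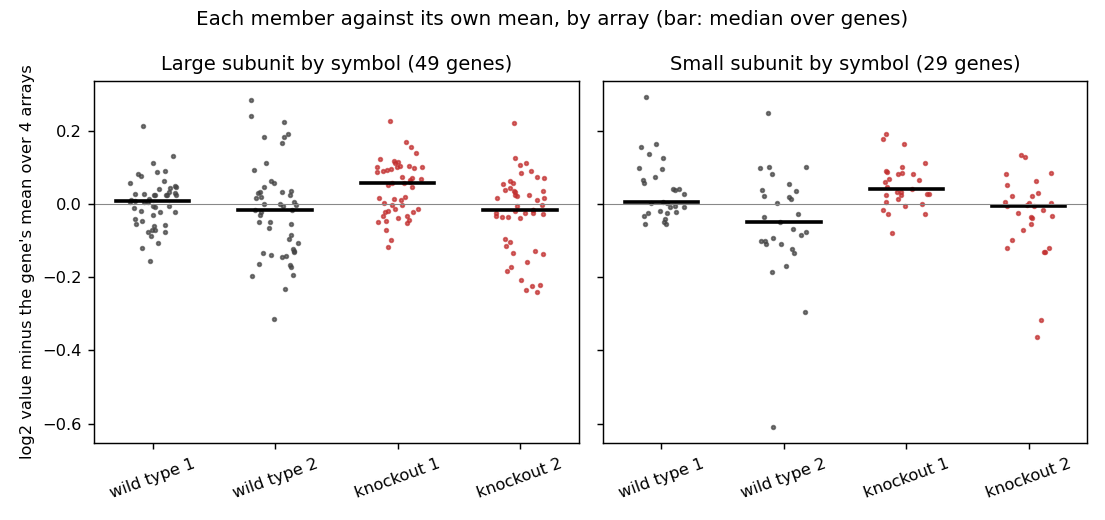
Log2 value of each member minus its mean over the 4 arrays, by array, for the large (left) and small subunit (right), in black for wild type and red for the knockout; points are genes and bars medians. The medians of the first knockout array are highest, 0.058 and 0.040, and those of the second wild-type array, -0.017 and -0.049, are lowest.

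The small difference in favour of the knockout moved with single arrays. Without the second wild-type array the median log2 fold change of the members was -0.0076 and 38 of 78 genes were higher. The number of members at an unadjusted limma p under 0.05 went from 6 to 25 without the first wild-type array, when 14.7% of all genes were past it, to 10 without the first knockout array and to 2 without the second, with 5.55% and 2.78% of all genes past it. It also went to 1 with no offset, against 5.58% of all genes, and to 10 other members with the local spot background subtracted, against 8.05%, which turned the sign of 11 of the 17 named members.

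**Figure D5:**
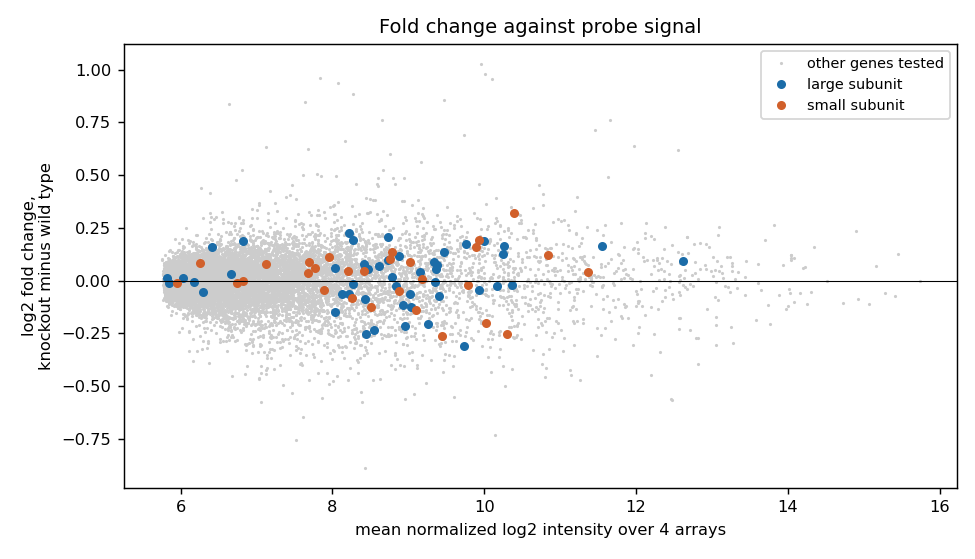
Log2 fold change, knockout minus wild type, against the mean normalized log2 intensity over 4 arrays, for large subunit genes (blue), small subunit genes (orange) and all other genes tested (grey). Members lie inside the cloud of other genes at every intensity, and the cloud narrows toward the dim end.

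The authors' own processed values, which were corrected by a constant and scaled on each array, gave ratios of the group means for the 77 members with 4 values. The ratio of knockout to wild type was above 1 in 50 members, 64.9%, and below 1 in 27, against 50.2% above 1 among the 14852 genes with 4 values. The median ratio was 1.05, with 1.05 in the large and 1.06 in the small subunit, against 1.001 over all genes. The members are brighter than most genes tested, and no comparison with genes of like brightness was made on these values. The second wild-type array had the lowest scale of the 4, 0.807. How far that scale raises the ratios of bright genes was not tested. Mrpl20 had the lowest ratio, 0.82, and Mrpl35 the highest, 1.32. On these values, tested on the log2 scale with limma, 0 members had an unadjusted p under 0.05, where 4.26% of all genes did.

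The other genes of mitochondrial translation were read from 5 lists with 75 entries, some of them older names. Of these entries 66 had a probe under that symbol, and 65 were above background. Of the 65 genes, 41 were higher and 24 lower in the knockout, with a median log2 fold change of 0.032 against 0.0017 over all genes tested. With arrays scaled to a common median this was 0.0066 against 0.0056. An unadjusted limma p under 0.05 was found for 6, 9.23%, against 6.74% of all genes tested. The lowest adjusted p was again 0.727. No gene of these lists therefore passed the test. The 6 are spread over 4 lists and both directions.

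Of 7 ribosomal proteins listed under other symbols 4 had a probe under that symbol, 3 of them higher and 1 lower. Ict1 and Mrp63 are older names of the members Mrpl58 and Mrpl57, counted above at 0.06 ± 0.05 and -0.05 ± 0.04. Ptcd3, a small subunit protein with pentatricopeptide repeats, had log2 values of 9.81 and 9.95 in wild type, against 9.67 and 9.61 in the knockout, a fold change of -0.24 ± 0.06 with an unadjusted limma p of 0.0142. Chchd1 was at 0.20 ± 0.08 and Dap3, a GTP-binding protein of the small subunit, at 0.09 ± 0.07. Aurkaip1 had no probe under its symbol.

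Of the 14 translation factors 7 were higher and 7 lower. Tsfm, the exchange factor of mitochondrial elongation factor Tu, had log2 values of 8.18 and 8.10 in wild type, against 8.30 and 8.36 in the knockout, a fold change of 0.19 ± 0.05 with an unadjusted limma p of 0.0145. Gfm2, which recycles the ribosome after termination, had 8.13 and 8.36 in wild type, against 7.93 on both knockout arrays, a fold change of -0.31 ± 0.09 with an unadjusted p of 0.0173 in limma. Taco1, an activator of translation of a cytochrome oxidase subunit, was at 0.12 ± 0.05.

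Of 20 assembly and ribosomal RNA modification genes 11 were higher and 9 lower. Rpusd4, a pseudouridine synthase, was at -0.19 ± 0.07 with an unadjusted limma p of 0.0457, and the GTPases Gtpbp10 and Mtg2 were at -0.10 ± 0.04 and -0.15 ± 0.07. The value of Mtg2 is that of its brightest probe. The mean of its kept probes was at -0.0082, so no direction is given for Mtg2, which the count takes as lower. Of 20 aminoacyl-tRNA synthetases and related enzymes 14 were higher and 6 lower. Rars2, the arginyl enzyme, had log2 values of 8.01 and 7.97 in wild type, against 8.21 and 8.28 in the knockout, a fold change of 0.26 ± 0.04 with an unadjusted limma p of 0.00303. Yars2 was at 0.14 ± 0.06 and Pars2 at -0.10 ± 0.04.

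Mitochondrial transcription, which makes the ribosomal RNA, had 6 of 7 genes higher, none of them with an unadjusted limma p under 0.05. Tfam, which packages mitochondrial DNA, was at 0.08 ± 0.06 and Polrmt, the RNA polymerase, at 0.08 ± 0.06. Tfb2m, the initiation factor, was the exception at -0.35 ± 0.15, with log2 values of 8.38 and 8.80 in wild type, against 8.18 and 8.30 in the knockout. The ribosomal RNA itself is not among the values described here.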

How the data were processed

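The deposited scanner files hold, per the file headers, the median intensity of each of 27456 spots and of its local background. Aligner and genome build do not apply; gene symbols came from the platform annotation, and promoters and gene positions from RefSeq tables of GRCm38.p6. A table of processed intensity values was deposited too, in which a constant of 78.4 to 87.7 units was subtracted on each array and the rest scaled by 0.807 to 1.02, as found by setting it against the spots. Its column medians are 25; the rule for its 3714 to 4955 empty cells per array is not known.

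The background of the spot medians was corrected by normexp (offset 50, all spots; limma 3.58.1, R 4.3.3), without local background, which followed the spot signal (correlation of log2 values 0.931 to 0.967). Control spots were left out and log2 values quantile normalized. A probe was kept when it exceeded the 95th percentile of blank and negative control spots on at least 2 arrays, and the brightest kept probe stood for a gene; 3 members had 2 probes. The fit with lmFit and eBayes covered 15955 genes, with 2 residual and 2.49 prior degrees of freedom and two-sided p-values adjusted by Benjamini-Hochberg, threshold 0.05. Precision is limited by the small number of arrays.

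Named were, per subunit by symbol, the 6 genes with the smallest p and the 2 with the highest signal, the Mrps18 family, the extremes, and 3 genes of each other list; further members are given as examples of their structural group or for their spread and were chosen after their values were seen. The members and lists were chosen with earlier results of these data known, so no list was tested. Alternatives changed the background correction, scaling, filter, source of values, probe choice, variance model, subunit assignment and block, or left out an array.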

Additional observations from a re-analysis of the deposited data

How the results depend on the processing

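Under all 15 alternatives limma called 0 genes at an adjusted p under 0.05, and of 480 fold changes of the 32 named genes recomputed under them 460 kept their sign. This share says little, because changing the filter, the variance model or the block left these fold changes as they were. Those signs could not turn, and the mean of probes alters only genes with several probes. With local background subtracted, 11 of 17 named members and 6 of 15 other named genes turned. Some that kept their sign moved far, among them Mrps36 from 0.042 to 1.64 and Tfam from 0.081 to 0.81. Mrpl23 went from 0.17 to 0.80, Chchd1 from 0.20 to 0.87 and Mrps21 from 0.12 to 0.71. Mrpl10 shrank from -0.25 to -0.036 and Mrpl30 from 0.16 to 0.0094. Subtracting local background turned Mrpl17 to -0.17, Mrpl48 to -0.085, Mrpl35 to -0.087, Mrpl20 to 0.016, Mrpl42 to -0.38, Mrps18c to 0.93, Mrps17 to -0.51, Mrps18a to -0.29, Mrps11 to -0.084, Mrps18b to -0.55, Mrps33 to -1.44, Ptcd3 to 0.015, Taco1 to -0.12, Gtpbp10 to 0.12, Mtg2 to 0.10, Yars2 to -0.19 and Tfb2m to 0.35. The mean of its probes turned Mrps21 to -0.068, and leaving out wild type 2 turned Mrps18b to -0.021 and Mrps33 to -0.14, where it was 0.77 without wild type 1; the cause was not tested. The count of members at an unadjusted p under 0.05, 6, became 1 without an offset, 10 with local background, 0 in the authors' table and 2 with an intensity trend, and ranged from 2 to 25 with an array left out. Such fits have 1 residual degree of freedom, and the lone sample is assumed to vary like the other group. Of all genes, 5.58% were past that p without an offset and 8.05% with local background. The share was 4.26% in the authors' table and 6.22% with an intensity trend. These shares apply also to the counts of the other mitochondrial translation genes given below. Without wild type 1 the share of all genes rose too, as given above, so counts from that fit say little about either list. The members' median log2 fold change became -0.042 with local background, 0.089 in the authors' table, 0.019 with the mean of probes, 0.011 with median scaling (all genes 0.0056) and 0.044 with 75th percentile scaling (all genes 0.039), and ranged from -0.0076 to 0.061 with an array left out. The large subunit median became 0.061 without an offset and 0.072 in the authors' table, range 0.0044 to 0.064 with an array left out. The small subunit median became -0.084 with local background, 0.0086 with median scaling and 0.095 in the authors' table, range -0.021 to 0.069. Large minus small became 0.011 without an offset, 0.062 with local background and 0.0089 with either scaling, range -0.041 to 0.031. For the other mitochondrial translation genes the count of 6 became 3 without an offset and 0 in the authors' table, range 4 to 20, the 20 without wild type 1, and their median became 0.052 with an offset of 0 or 16, 0.0066 with median scaling and 0.085 in the authors' table, range 0.0058 to 0.043.

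Over all genes the calls at an unadjusted p under 0.05 split into 585 higher and 491 lower, into 397 and 676 with median scaling and into 718 and 415 with 75th percentile scaling. With the replicate number as a block 11 members were past that threshold, 5 of them among the 6, against 7.20% of all genes, and 0 genes passed after adjustment. The replicate numbers pair the samples only by number, with a correlation of the differences between replicates of 0.097 over all genes and -0.013 over the members. Signal over background limits the 8 dimmest members most.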
